A study of Rattus norvegicus with 8 samples.

Results

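The genes described here encode the enzymes that remove peroxides and superoxide and keep protein and small-molecule thiols reduced: glutathione, thioredoxin, peroxiredoxin, glutaredoxin, dismutase and methionine sulfoxide reductase genes. They are 37 genes given by name, found on the array through the rat RefSeq transcript named for each probe, and they were measured among 13452 features that could be tested. Of the 37, 36 had at least 1 matching probe (41 probes in all), and 29 passed the filter on dim probes. Glrx2, a mitochondrial glutaredoxin, had no matching probe.

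NR8383, an established macrophage line from rat lung lavage, was exposed for 4 h to 4 or 16 µg/mL of ZnO, with 4 one-colour Agilent arrays for each dose that the series' design calls biological replicates. According to the sample descriptions the cells had been through 20 passages at ZnO 4 but 200 at ZnO 16, and each dose was hybridised on a slide of its own and scanned separately. Dose, passage number, slide and scan therefore cannot be told apart, and every difference below is between these 2 sets of arrays. Untreated cells, which the design text also mentions, were not analysed here.

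Levels are log2 signals relative to the array's own 75th percentile, and differences are ZnO 16 minus ZnO 4 on that log2 scale. The 75th percentile signal was 313 to 516 on the ZnO 4 arrays and 151 to 381 on the ZnO 16 arrays, with replicates 2 and 3 of the higher dose the dimmest. The share of probes well above background was 31.4% to 39.3%. Arrays correlated over genes at 0.973 to 0.991 within ZnO 4, 0.969 to 0.986 within ZnO 16 and 0.914 to 0.947 between doses. Of 13 macrophage marker genes with a probe, 11 were well above background on all 8 arrays, Adgre1 and Marco were so on none, and their summed level, most of which comes from Lyz2 and Laptm5, was 8.22 to 8.57 at ZnO 4 and 8.13 to 8.61 at ZnO 16. Within that list Cd68 was lower at ZnO 16 (a difference of -1.74, adjusted p = 2.1e-05 by limma), Itgam was lower (-0.52) and Spi1 higher (0.81). Of 4 endothelial markers, Pecam1, Cdh5 and Vwf were well above background on all 8 arrays and Kdr on none. Their summed level was 3.38 to 3.73 at ZnO 4 and 2.35 to 2.88 at ZnO 16. Of 6 epithelial markers 5 were well above background on no array. The part of these markers in the results below was not tested. NR8383 is a cell line, and bulk signals do not show how these markers are spread over its cells.

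Reduced glutathione is made from its amino acids by 2 ligases and is joined to electrophiles by the transferases. The glutathione peroxidases and glutaredoxins oxidise it, and glutathione reductase returns the oxidised form to the reduced one with NADPH. Thioredoxins are reduced by thioredoxin reductases, also with NADPH, and in turn reduce most peroxiredoxins and the methionine sulfoxide reductases. Several of these enzymes have separate cytosolic and mitochondrial forms, and in macrophages they face the oxidants the cell makes itself.

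The sequence in front of a gene is where factors such as Nrf2 (antioxidant response element), Mtf1 (metal response element), AP-1, and CHOP with ATF4 bind, and these factors are the textbook link of oxidant, zinc and amino acid stress to this set of genes. The 250 bases before the start of the gene were taken from RefSeq on GRCr8 for the 30 of 37 members that matched, and 5 short motifs were searched on both strands: TGACNNNGC (antioxidant response element core), TGCGCNC and TGCACNC (metal response element core in 2 forms), TGANTCA (AP-1), which can overlap the first, and TGATGNAA (CHOP with ATF4). The 6 promoters shown are the 3 that hold the antioxidant core (Gstp1, Prdx1 and Sod2), 1 of the 2 promoters of members called lower (Prdx4), and those of Gss and Glrx5, whose calls rest on the smallest adjusted p-values among the members called higher. Capitals mark every match to the 5 motifs. The GC box (GGGCGG) was searched as well but is neither marked nor counted among the 5.
Gstp1, chr1:210769706-210769955, minus strand: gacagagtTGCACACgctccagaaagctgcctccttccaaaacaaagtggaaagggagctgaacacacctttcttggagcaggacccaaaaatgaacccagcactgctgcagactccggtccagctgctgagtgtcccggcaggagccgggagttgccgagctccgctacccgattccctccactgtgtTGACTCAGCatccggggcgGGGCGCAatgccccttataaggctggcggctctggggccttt
Prdx1, chr5:135383656-135383905, plus strand: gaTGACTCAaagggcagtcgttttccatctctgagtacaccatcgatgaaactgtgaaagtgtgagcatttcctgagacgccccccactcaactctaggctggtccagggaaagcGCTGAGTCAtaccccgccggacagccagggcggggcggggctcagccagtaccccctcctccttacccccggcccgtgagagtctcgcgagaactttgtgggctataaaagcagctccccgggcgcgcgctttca
Sod2, chr1:50050169-50050418, minus strand: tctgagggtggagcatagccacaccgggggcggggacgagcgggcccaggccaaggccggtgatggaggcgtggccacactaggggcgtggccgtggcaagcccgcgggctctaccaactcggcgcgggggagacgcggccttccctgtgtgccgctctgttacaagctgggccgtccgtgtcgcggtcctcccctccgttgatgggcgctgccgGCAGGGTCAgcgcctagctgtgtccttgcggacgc
Prdx4, chrX:43878483-43878732, plus strand: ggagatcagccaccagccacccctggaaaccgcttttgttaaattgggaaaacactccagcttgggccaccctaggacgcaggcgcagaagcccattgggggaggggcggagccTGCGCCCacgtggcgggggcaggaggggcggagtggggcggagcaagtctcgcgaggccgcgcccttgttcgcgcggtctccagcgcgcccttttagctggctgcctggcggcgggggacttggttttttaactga
Gss, chr3:164538307-164538556, minus strand: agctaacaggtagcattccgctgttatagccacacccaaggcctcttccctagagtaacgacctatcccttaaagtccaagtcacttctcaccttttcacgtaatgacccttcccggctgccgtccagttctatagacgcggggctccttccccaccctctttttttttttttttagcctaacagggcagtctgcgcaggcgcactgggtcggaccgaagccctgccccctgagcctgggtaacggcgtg
Glrx5, chr6:129752944-129753193, plus strand: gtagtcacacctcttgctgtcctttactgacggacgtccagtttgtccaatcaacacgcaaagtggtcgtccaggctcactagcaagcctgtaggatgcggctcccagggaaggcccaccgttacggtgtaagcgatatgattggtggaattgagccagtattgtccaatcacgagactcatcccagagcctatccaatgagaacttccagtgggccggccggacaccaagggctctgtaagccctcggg

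The antioxidant core was present in 3 of 30 member promoters and in 10.2% of all 27456 promoters of the same length, or 12.9% of the 6694 promoters of tested genes. In Gstp1 it overlaps an AP-1 match, 61 to 53 bases before the start, and in Prdx1 it does so as well, 135 to 127 bases before the start, while in Sod2 it lies 35 to 27 bases before the start. None of these 3 genes passed the test between doses. TGCGCNC was present in 5 member promoters (Glrx3, Gstp1, Gstk1, Prdx4 and Txnl1) and in 12.7% of all promoters, or 23.2% of those of tested genes. The same shares were 10.2% and 10.6% for TGCACNC, present in 3 members, 6.36% and 4.53% for AP-1, present in 4, and 3.27% and 1.99% for TGATGNAA, present in 0. At least 1 of the 5 motifs was found in 10 of the 30 member promoters: in 0 of 8 of members called higher, as Gss and Glrx5 show, in 2 of 2 of members called lower (Prdx4 and Txnl1, both with TGCGCNC) and in 6 of 14 of tested members not called. Gsr and Txnip, the other members called lower, were among the members without a matched promoter. The share of all promoters with at least 1 of the 5 motifs was not computed, so these counts have no background beside them. The GC box, left out of these counts, was present in 23 of the 30 member promoters. It was present in 32.4% of all promoters and in 58.9% of those of tested genes. A link of motifs to the direction of a call was not tested. A match describes the letters in this window only, and binding was not measured.

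Relative to the 75th percentile, 8 of the 29 tested members were called higher at 16 µg/mL (27.6%) and 4 lower (13.8%), where 41.7% of all 13452 features were called in either direction. Of all features 19.8% were called higher and 21.9% lower, and among features with a symbol 23.5% were higher and 16.8% lower, so the members' shares lie near those of other named genes. Calls are from limma with Benjamini-Hochberg adjustment over all features and a threshold of 0.05. The median member differed by 0.16 and the median of all features by 0.01 (0.005 before rounding). The 4 values of the higher dose lay wholly above those of the lower dose for 8 members (18.5% of all features) and wholly below them for 5 (21.4%), where 40% of all features did not overlap in either direction. Txnip passed the filter only through the dose where it was bright, so of the 4 lower calls 3 (Gsr, Prdx4 and Txnl1) are free of that limit.

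**Figure D1:**
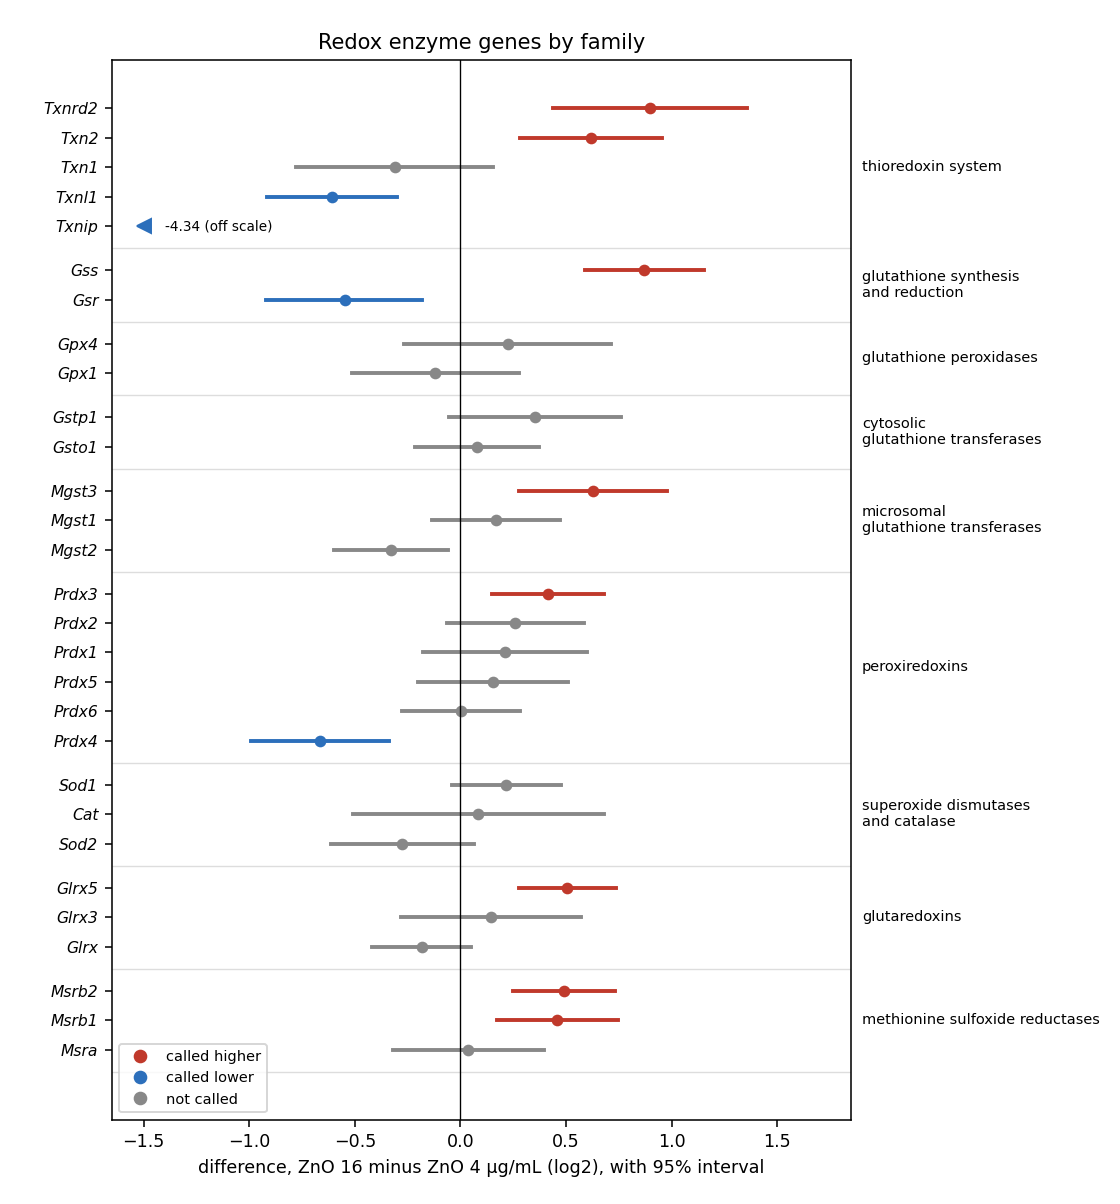
Difference between doses for each of the 29 tested members, grouped by enzyme family. Each point is ZnO 16 minus ZnO 4 (log2, relative to the 75th percentile), each bar its 95% interval from limma with 4 arrays per dose, and colour shows the call; Txnip is drawn as an arrow because its fitted difference of -4.34 lies off the scale. Members called higher lie between 0.41 and 0.90, and apart from Txnip those called lower lie between -0.66 and -0.55.

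In the thioredoxin system, both measured mitochondrial members rose and 2 of the 3 others fell (Txnl1, and Txnip by a bound only). Txnrd2, the mitochondrial thioredoxin reductase, stood at -0.89, -0.46, -0.67 and -0.13 on the ZnO 4 arrays and at -0.06, 0.52, 0.71 and 0.26 on the ZnO 16 arrays, replicates 1 to 4 in order. All ZnO 16 arrays were above all ZnO 4 arrays, by a narrow margin between replicate 4 of the lower and replicate 1 of the higher dose. The rise was 0.90 (SE 0.21, adjusted p = 0.00653 by limma), or 1.86-fold, but with normexp it was 0.32 relative to all genes and did not pass (adjusted p = 0.167 by limma). Normexp here means background correction of the raw median signals with an added offset of 50, followed by quantile normalization. That offset makes differences of dim probes smaller, but whether it accounts for this lost call was not tested. Txn2, the mitochondrial thioredoxin that Txnrd2 serves, stood at 1.96, 2.31, 2.01 and 2.35 at ZnO 4 and at 2.54, 3.05, 2.90 and 2.60 at ZnO 16. The doses did not overlap, and the highest values were those of the 2 dimmest arrays, replicates 2 and 3. The rise was 0.62 (SE 0.15, adjusted p = 0.00891 by limma).

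Txn1, the cytosolic thioredoxin, stood at 8.04, 8.19, 8.02 and 8.30 at ZnO 4 and at 7.68, 8.35, 7.95 and 7.31 at ZnO 16. Replicate 2 of the higher dose was the highest of all 8 values and replicate 4 the lowest, so the doses overlapped. The difference of -0.31 (95% interval -0.78 to 0.15) did not pass the test, but without replicate 2 of ZnO 16 it was -0.49 (adjusted p = 0.0446 by limma). Txnl1, a thioredoxin-like protein bound to the proteasome, stood at -0.17, -0.24, -0.07 and -0.36 at ZnO 4 and at -0.93, -0.87, -0.91 and -0.56 at ZnO 16. The doses did not overlap, and the fall was by 0.61 (SE 0.14, adjusted p = 0.00634 by limma).

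Txnip, the arrestin-like protein that binds and inhibits thioredoxin and restrains glucose uptake, was the member with the largest fitted difference. It stood at -1.44, -1.77, -1.16 and -3.38 at ZnO 4, where 3 of 4 arrays were well above background, and at -6.71, -5.92, -6.03 and -6.44 at ZnO 16, where none was. Only a nominal bound can be given: at the higher dose Txnip was at least 4.54-fold lower by a limit that is not strict. The adjusted p of the fitted difference was 5.83e-05 by limma, in a test that Txnip entered only because it was bright at ZnO 4, and it was 3.46e-06 with no filter on dim probes. Both p-values rest on ZnO 16 values that were not well above background, whose spread need not be that of Txnip RNA. The bound sets the mean at ZnO 4 against the higher of the probe's own value and the array's lowest well-above-background signal at ZnO 16. A probe can miss that mark at a higher signal, so the true fold may be smaller. All 4 ZnO 4 values of Txnip lay above the lowest such signal of their arrays (-4.60 to -3.79), yet only 3 of 4 were well above background. With normexp, whose added offset makes differences of dim probes smaller, the difference was -1.29 relative to all genes, a smaller fold than this bound. Without replicate 1, 2 or 3 of ZnO 4 the probe no longer passed the filter and was not tested.

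Of the genes that make and regenerate glutathione, 1 rose and 1 fell. Gss, glutathione synthetase, which adds glycine in the last step of synthesis, stood at 0.30, 0.62, 0.39 and 0.63 at ZnO 4 and at 1.19, 1.37, 1.48 and 1.39 at ZnO 16. Every ZnO 16 array was above every ZnO 4 array, with a wide gap between them. The rise was 0.87 (SE 0.13, adjusted p = 0.000474 by limma), or 1.83-fold, the smallest p-value among the members called higher, though with normexp background correction the difference was 0.31 relative to all genes (adjusted p = 0.0619 by limma). Gsr, glutathione reductase, stood at -0.05, 0.35, 0.15 and 0.72 at ZnO 4 and at -0.14, -0.28, -0.31 and -0.28 at ZnO 16. The doses did not overlap, but replicate 1 of ZnO 4 lay close to the ZnO 16 arrays, and the SD was 0.33 at ZnO 4 against 0.08 at ZnO 16 (n = 4). The fall was by 0.55 (SE 0.17, adjusted p = 0.0235 by limma), and at a nearly equal size of -0.53 it no longer passed without ZnO 4 replicate 2 (adjusted p = 0.0581) or ZnO 16 replicate 3 (adjusted p = 0.0533, both by limma).

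**Figure D2:**
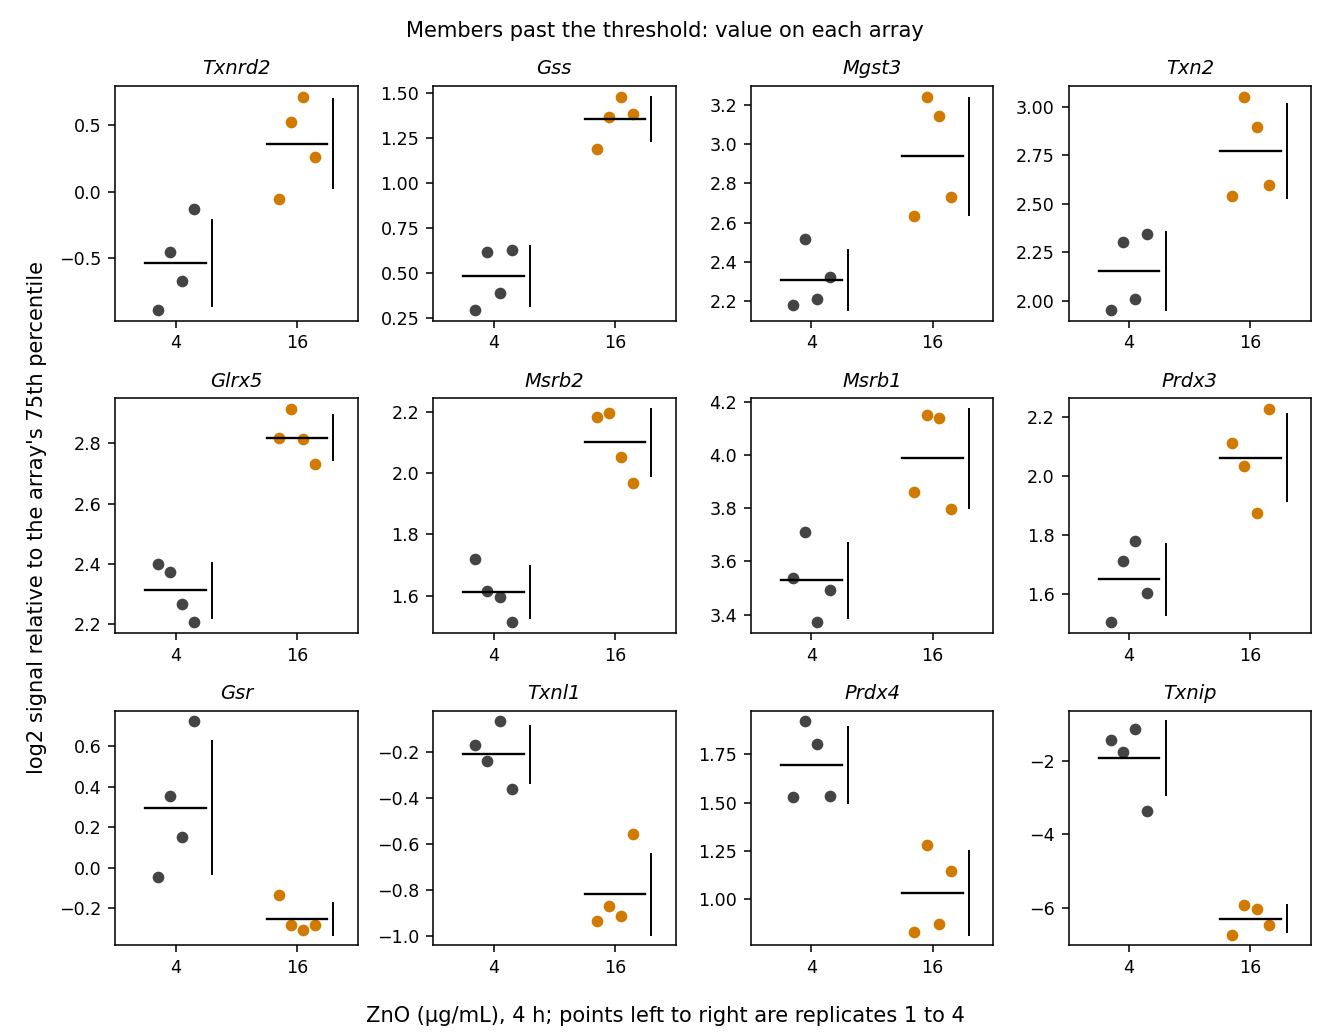
Level of each of the 12 members past the threshold on each of the 8 arrays. The vertical axis is the log2 signal relative to the array's 75th percentile, with its own range in each panel; points from left to right within a dose are replicates 1 to 4, horizontal lines are means and vertical bars are mean plus and minus SD (n = 4). The doses do not overlap in any of the 12 panels, and Txnip at 16 µg/mL is not well above background.

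On the brightest probe, which stood for the gene, neither tested glutathione peroxidase passed, while the other probe of each was called higher. Gpx1, the abundant peroxidase that reduces hydrogen peroxide, stood at 6.35, 6.50, 6.01 and 6.22 at ZnO 4 and at 6.16, 6.56, 6.12 and 5.77 at ZnO 16. The doses overlapped, and the difference was -0.12 (95% interval -0.52 to 0.28). The other Gpx1 probe gave 0.52 (SE 0.15, adjusted p = 0.0201 by limma over all 15563 probes), so the 2 probes of this gene disagree in sign.

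Gpx4, the enzyme that reduces lipid peroxides within membranes and protects against ferroptosis, stood at 7.72, 8.15, 7.67 and 7.79 at ZnO 4 and at 7.72, 8.56, 8.30 and 7.65 at ZnO 16. The 2 dimmest arrays of the higher dose, replicates 2 and 3, held its highest values, while replicates 1 and 4 lay at the low end of the ZnO 4 arrays or below them. The difference was 0.23 (95% interval -0.27 to 0.72; adjusted p = 0.44 by limma), and the other Gpx4 probe gave 0.63 (SE 0.19, adjusted p = 0.0234 by limma over all probes). Gpx4 was also called higher with median scaling, with quantile normalization and with normexp. Gpx3, the secreted plasma peroxidase, did not pass the filter.

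Most of the cytosolic glutathione transferases, which join glutathione to electrophiles, did not pass the filter. Gsta4, Gstm1 (on both its probes), Gstm2 and Gstt1 were too dim, and the probe of Gstt1 lay in an area of low signal on replicate 4 of each dose. Gstk1, the mitochondrial and peroxisomal transferase, was also too dim. Gstp1, the pi class enzyme, differed by 0.35 (95% interval -0.05 to 0.76) on one probe and by 0.10 on the other (adjusted p = 0.656 by limma over all probes), and the first passed without ZnO 4 replicate 4 (0.51, adjusted p = 0.0244 by limma). Gsto1, the omega class enzyme, differed by 0.08 (95% interval -0.22 to 0.37). Members of these classes are similar in sequence and the probe sequences were not used here, so how far each probe reads its own gene was not tested.

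Of the 3 microsomal transferases 1 rose and 0 fell. Mgst3, a membrane enzyme with glutathione peroxidase activity, stood at 2.18, 2.52, 2.21 and 2.33 at ZnO 4 and at 2.63, 3.24, 3.14 and 2.73 at ZnO 16. The doses did not overlap, and again replicates 2 and 3 of the higher dose were highest. The rise was 0.63 (SE 0.16, adjusted p = 0.0099 by limma). Mgst2, a related enzyme that also makes leukotriene C4, stood at 3.89, 4.09, 4.07 and 3.86 at ZnO 4 and at 3.44, 3.83, 3.71 and 3.61 at ZnO 16. All ZnO 16 arrays were below all ZnO 4 arrays, replicates 2 and 4 respectively lying close together, yet the difference of -0.33 (95% interval -0.60 to -0.06, the interval before adjustment) missed the threshold with an adjusted p of 0.0522 by limma. It passed without ZnO 16 replicate 2 (-0.39, adjusted p = 0.0352 by limma). Mgst1, a microsomal and outer mitochondrial membrane enzyme, differed by 0.17 (95% interval -0.13 to 0.47).

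Among the 6 peroxiredoxins, the thiol peroxidases that use thioredoxin as a rule, 1 rose, 1 fell and 4 did not pass. Prdx3, the mitochondrial form reduced by Txn2, stood at 1.50, 1.71, 1.78 and 1.60 at ZnO 4 and at 2.11, 2.03, 1.88 and 2.23 at ZnO 16. The doses did not overlap, with replicate 3 of each dose nearest the other. The rise was 0.41 (SE 0.12, adjusted p = 0.0193 by limma), and without ZnO 4 replicate 1 it was 0.37 (adjusted p = 0.0603 by limma). Prdx4, the form of the endoplasmic reticulum, where it takes part in oxidative protein folding, stood at 1.53, 1.92, 1.80 and 1.53 at ZnO 4 and at 0.83, 1.28, 0.87 and 1.15 at ZnO 16. Every ZnO 16 array was below every ZnO 4 array, and the fall was by 0.66 (SE 0.15, adjusted p = 0.0054 by limma).

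Prdx1, the cytosolic form and a textbook Nrf2 target, stood at 3.47, 3.11, 3.35 and 3.73 at ZnO 4 and at 3.63, 3.39, 3.45 and 4.04 at ZnO 16. The doses overlapped, and the difference was 0.21 (95% interval -0.18 to 0.60). Prdx5, found in mitochondria, peroxisomes and cytosol, stood at 6.51, 6.67, 6.30 and 6.83 at ZnO 4 and at 6.58, 6.92, 6.92 and 6.51 at ZnO 16. These also overlapped, and the difference was 0.16 (95% interval -0.20 to 0.51). Prdx2, the other cytosolic form, differed by 0.26 (95% interval -0.07 to 0.58), and Prdx6, the 1-cysteine form that uses glutathione, by 0.00 (0.002 before rounding; 95% interval -0.28 to 0.28).

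None of the 3 tested dismutase and catalase genes passed. Sod1, the copper and zinc enzyme of the cytosol, stood at 6.01, 6.04, 5.94 and 5.94 at ZnO 4 and at 6.03, 6.34, 6.24 and 6.19 at ZnO 16. Only replicate 1 of the higher dose lay within the range of the lower, and the difference of 0.22 had a 95% interval from -0.04 to 0.48 (adjusted p = 0.156 by limma). Sod2, the manganese enzyme of the mitochondrial matrix and an NF-kB target in macrophages, stood at 1.55, 1.43, 1.45 and 1.25 at ZnO 4 and at 1.34, 1.01, 0.80 and 1.41 at ZnO 16. Replicates 1 and 4 of the higher dose overlapped with the lower dose, and the difference was -0.28 (95% interval -0.62 to 0.06). Cat, the peroxisomal catalase, stood at -3.41, -3.09, -3.79 and -3.04 at ZnO 4 and at -3.24, -3.77, -2.91 and -3.06 at ZnO 16. It was near background, well above it on 4 of 4 and 3 of 4 arrays, and its wide interval (difference 0.09, 95% interval -0.51 to 0.68) limits what can be said of it. Sod3, the extracellular dismutase, did not pass the filter.

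Of the glutaredoxins, which reduce mixed disulfides with glutathione, 1 of 3 rose. Glrx5, a mitochondrial glutaredoxin that carries iron-sulfur clusters, stood at 2.40, 2.38, 2.27 and 2.21 at ZnO 4 and at 2.82, 2.91, 2.81 and 2.73 at ZnO 16. The doses were clearly apart and each was tight, with SDs of 0.09 and 0.08 (n = 4). The rise was 0.51 (SE 0.10, adjusted p = 0.00356 by limma), and the other Glrx5 probe was not well above background. Glrx, the cytosolic disulfide reductase, differed by -0.18 (95% interval -0.42 to 0.05), and Glrx3, a cytosolic iron-sulfur protein, by 0.15 (95% interval -0.28 to 0.57).

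Of the methionine sulfoxide reductases, which repair oxidised methionine, both B forms rose. Msrb2, the mitochondrial B form, stood at 1.72, 1.62, 1.59 and 1.51 at ZnO 4 and at 2.18, 2.20, 2.05 and 1.97 at ZnO 16. The doses did not overlap, and the rise was 0.49 (SE 0.11, adjusted p = 0.00543 by limma). Msrb1, the selenoprotein form of cytosol and nucleus, stood at 3.54, 3.71, 3.37 and 3.49 at ZnO 4 and at 3.86, 4.15, 4.14 and 3.80 at ZnO 16. They did not overlap either, though replicate 2 of ZnO 4 lay near replicate 4 of ZnO 16. The rise was 0.46 (SE 0.13, adjusted p = 0.0168 by limma), and without ZnO 4 replicate 3 it was 0.41 (adjusted p = 0.0522 by limma). Msra, the A form found in several compartments, differed by 0.04 (95% interval -0.32 to 0.40).

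Sorted by where the enzyme mainly works, 5 of the 6 tested mitochondrial members were called higher (Txnrd2, Txn2, Glrx5, Msrb2 and Prdx3) and 0 lower, with a median difference of 0.50, where 19.8% of all features were called higher and 21.9% lower. With both dimmest arrays left out 3 of the 6 were called higher (Txn2 and Txnrd2 were lost), and without scaling between arrays 0 were. The exception was Sod2 (-0.28, not called), and Gstk1 and Glrx2 gave no value. Of the 13 tested cytosolic or nuclear members, 2 were higher (Gss and Msrb1) and 2 lower (Txnl1 and Txnip), with a median of 0.15. Among the 5 tested members of more than 1 compartment 1 was lower (Gsr), with a median of 0.04. Of the 3 membrane members 1 was higher (Mgst3), the single tested secretory pathway member was lower (Prdx4), and the peroxisomal member (Cat) was not called. The difference between compartments was not tested, since the sorting was made with results of these data known.

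**Figure D3:**
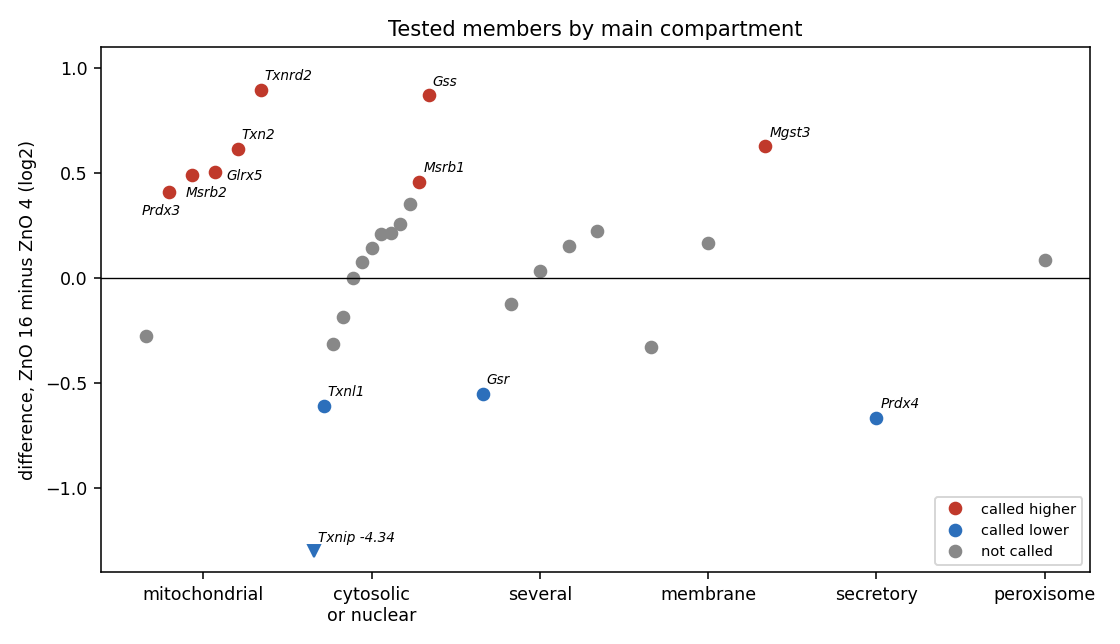
Differences of the 29 tested members sorted by main compartment. The vertical axis is ZnO 16 minus ZnO 4 (log2, relative to the 75th percentile), points are ordered by value within a compartment, and called members are named; Txnip (-4.34 as fitted) is drawn at the lower edge. Of the 6 mitochondrial points 5 are called higher, with a median of 0.50, against a median of 0.15 over the 13 cytosolic or nuclear points.

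The sizes of these differences have to be read against what moved between the slides. Among spike-in RNAs well above background, levels on the same scale differed between the doses from -0.69 to 1.60, so every member difference other than that of Txnip was no larger than the range of the spike-ins, and a slide difference of that size cannot be separated from it. At ZnO 16, the 2 dimmest arrays were both above the other two arrays for 13 of 29 members (44.8%), against 35.8% of all features. This held for 4 of the 8 members called higher, Txn2, Txnrd2, Mgst3 and Msrb1. Since the 2 dimmest arrays held the highest ZnO 16 values of these 4, leaving them out had to make their differences smaller. With both dimmest arrays left out (chosen after seeing the data) these 4 no longer passed (0.42, 0.64, 0.37 and 0.30), while Gss, Glrx5, Msrb2 and Prdx3 did. In that fit, with 2 arrays left at ZnO 16, Gsr also missed the threshold (-0.51) and Txn1 (-0.64) and Mgst2 (-0.45) were called lower. The part of array brightness in the results was not tested further.

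The direction of the members also depends on the reference level. The median of all features differed by 0.17 with median scaling, by -0.75 without scaling between arrays and by -0.76 with spike-in scaling. Against 8 members called higher and 4 called lower as reported, median scaling gave 13 and 1, the unscaled signals 0 and 7, and the spike-ins 0 and 8. Median, spike-in and no scaling differ from the reported scaling by a single value per array. The members therefore shift together by construction in the plot of differences under each scaling. The signs stated here are relative to the 75th percentile of each array.

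**Figure D4:**
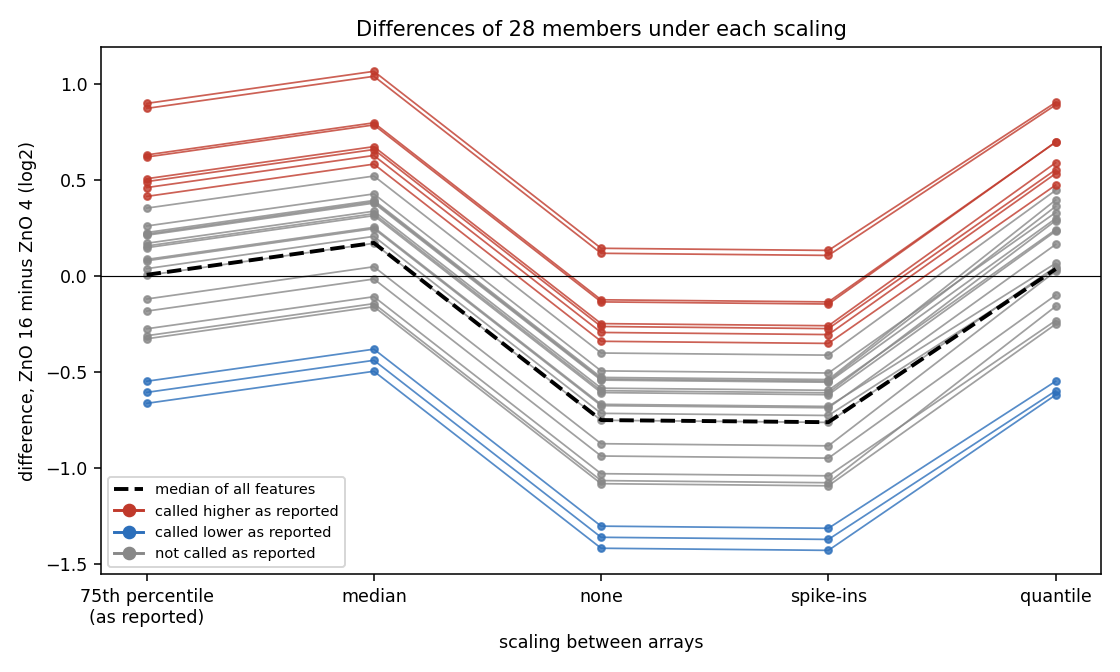
Differences of 28 members (all tested members but Txnip) under 5 ways of scaling the arrays. The vertical axis is ZnO 16 minus ZnO 4 (log2), each line is a member, coloured by its call as reported, and the dashed line is the median of all features, which lies at 0.01, 0.17, -0.75, -0.76 and 0.04 from left to right. With median, no and spike-in scaling the lines shift together with that median by construction.

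Other genes of the same chemistry were read from 6 lists: 13 of 18 genes of glutathione supply and turnover, 16 of 18 of NADPH supply, 20 of 30 other thiol redox proteins, 8 of 21 other transferases and related membrane proteins, 9 of 11 of selenocysteine synthesis and 7 of 8 of the phagocyte NADPH oxidase were tested. The counts stand beside 19.8% of all features called higher and 21.9% lower, with a median difference of 0.01. In glutathione supply 5 rose and 2 fell (median 0.41). Chac1, which degrades glutathione in the cytosol, rose by 4.47 (SE 0.28), Slc3a2, the heavy chain of the cystine transporter, by 1.79, the glutathione exporter Abcc1 by 0.80, the transporter's light chain Slc7a11 by 0.71 and the dipeptidase Cndp2 by 0.39. Chac2, a relative of Chac1, and the aminopeptidase Lap3 were not well above background at 16 µg/mL. By the nominal bound used for Txnip, which is not strict, they were at least 3.46-fold and at least 1.99-fold lower. With normexp their differences of -1.03 and -0.67 were smaller than these bounds. These 2 genes, the whole of the falls in this list, passed the filter only through the dose where they were bright, as did Aldh1l2 in the next list. Gclc, the catalytic subunit of the rate-limiting ligase, differed by 0.22 (95% interval -0.10 to 0.55), and Gclm did not pass the filter. The offset added in normexp makes differences of dim probes smaller, in this list and in those below. With normexp the Slc7a11 difference was 0.03 (adjusted p = 0.738), that of Abcc1 0.29 (adjusted p = 0.157) and that of Cndp2 0.28 (adjusted p = 0.0739, all by limma), and Cndp2 also no longer passed without ZnO 4 replicate 1 or 3 (0.34 and 0.35).

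In NADPH supply 4 rose and 3 fell (median 0.08). The mitochondrial folate enzyme Mthfd2 rose by 1.22 (SE 0.29), the cytosolic folate enzyme Aldh1l1 by 0.73, and Pgls of the pentose phosphate pathway by 0.72, and with both dimmest arrays left out the last 2 missed the threshold (0.56 and 0.40). Taldo1, transaldolase, fell by 1.01 (SE 0.14). Aldh1l2, the mitochondrial counterpart of Aldh1l1, was at least 18.1-fold lower by the same nominal bound, with no ZnO 16 array well above background (-2.64 with normexp, a smaller fold than the bound). Idh2, the mitochondrial isocitrate dehydrogenase that makes NADPH (0.38), and Nnt, the transhydrogenase (-0.52), passed as well, but each was lost on leaving out any 1 of 6 arrays, replicates 1 to 3 of either dose, with differences of 0.32 to 0.42 for Idh2 and -0.56 to -0.42 for Nnt.

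Among the other thiol redox proteins 7 rose and 1 fell (median 0.27). They included Sesn2, a stress-induced sestrin (2.86, SE 0.21), Srxn1, the sulfiredoxin that repairs overoxidised peroxiredoxins (1.40, SE 0.13), and the selenoprotein Selenow (1.23, SE 0.12). The selenoprotein Selenok rose by 0.76 (0.22 with normexp, adjusted p = 0.102 by limma), the glyoxalase Hagh by 0.52 and Ccs, the copper chaperone of Sod1, by 0.51. Txndc12, of the endoplasmic reticulum, rose by 0.51 and Esd, which splits S-formylglutathione, fell by 0.41, but the first did not pass when replicate 1 or 3 of ZnO 4, or replicate 2 or 3 of ZnO 16, was left out (0.38 to 0.53) and the second without ZnO 4 replicate 1 or ZnO 16 replicate 2 or 3 (-0.41 to -0.35), and with normexp (-0.28, adjusted p = 0.138 by limma). Txnrd1, the cytosolic thioredoxin reductase, differed by 0.56 and missed the threshold (adjusted p = 0.0738 by limma).

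Of the other transferases 2 rose and 0 fell (median 0.07): Gstm4 by 0.77 (0.23 with normexp, adjusted p = 0.179 by limma) and Clic1, a chloride channel protein of the transferase fold, by 0.75. In the selenocysteine list 4 rose and 3 fell (median 0.13). The seryl-tRNA synthetase Sars1 rose by 1.35, the selenocysteine lyase Scly by 1.29 and the elongation factor Eefsec by 0.80. Sephs2, which makes the selenium donor, fell by 0.89. Trnau1ap (0.44), Pstk (-0.72) and Sepsecs (-0.64) passed too, but each was lost without any 1 of 5 arrays: replicates 1 and 3 of ZnO 4 and replicates 2 and 3 of ZnO 16 for all 3 genes, with ZnO 4 replicate 4 for Trnau1ap and ZnO 4 replicate 2 for the other two (0.29 to 0.46, -0.73 to -0.52 and -0.65 to -0.48). Of the oxidase list Cybc1, the chaperone of its membrane subunits, rose by 1.51 (SE 0.17) and Rac2, a GTPase that activates the oxidase, fell by 0.55 (-0.47 without ZnO 4 replicate 1, adjusted p = 0.0559 by limma). Without scaling between arrays, Chac1, Sesn2 and Slc3a2 were the only 3 genes of the 6 lists still called higher.

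**Figure D5:**
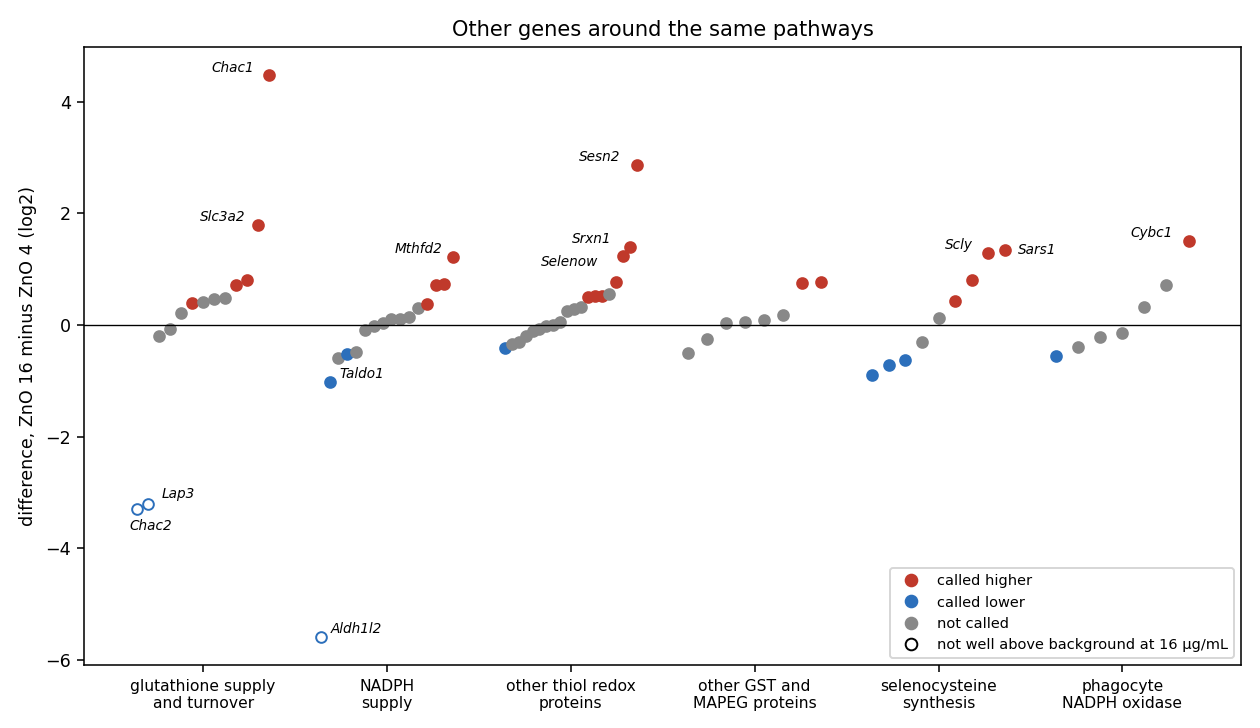
Differences of the tested genes of the 6 other lists. The vertical axis is ZnO 16 minus ZnO 4 (log2, relative to the 75th percentile), points are ordered by value within a list, colour shows the call, and called genes beyond 1 in size are named. Open circles (Chac2, Lap3 and Aldh1l2) are genes not well above background at 16 µg/mL, for which the text gives a nominal bound. Chac1 lies highest, at 4.47.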

How the data were processed

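Cy3-labelled cRNA was hybridised to Agilent arrays of 1 colour, per the labels' protocols. The deposited intensity is the linear processed signal that the scanner software wrote (Feature Extraction version 11.0.1.1, in the submitters' processing notes), background-subtracted within each array per the file headers and not normalized between arrays. Of 62976 spots per array, 58717 were not controls, giving 45598 probes. Accessions were named through the RefSeq table of GRCr8 (46.3% of probes had a symbol). Outlier-flagged spots were left out, no spot was saturated, spots of a probe were averaged, and log2 signal minus the 75th percentile was used. A probe was kept when well above background on at least 3 of 4 arrays of a dose, and the brightest probe stood for its gene. The test was limma (version 3.58.1, R 4.3.3, two-sided, intensity trend, Benjamini-Hochberg adjustment over 13452 features, threshold 0.05). It was also run on simulated data with independent noise for each gene. The simulation held no slide or brightness effect, so it cannot show how the calls fare under such effects. Each member was named, with values on every array for called members and 8 others fixed by name, and of the other lists chiefly the called genes (Mgst2's arrays were added after its values were seen). The members, lists and this rule were chosen with earlier results of these data known. Arrays were not paired by replicate number in the main fit. Deviations of same-numbered arrays correlated at 0.25, 0.40, -0.22 and -0.03 for replicates 1 to 4. The highest correlations with another number were 0.176, 0.184, 0.205 and 0.105. The same number gave the higher value for replicates 1 and 2 and the lower for 3 and 4, so whether the numbers pair the arrays was not settled.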

Additional observations from a re-analysis of the deposited data

Results flagged for a closer look

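Of 58 groups of 4 arrays checked (29 members at 2 doses), 3 had an array whose gap to its nearest neighbour exceeded Dixon's 95% critical share of the group's range, where chance gives about 1 in 20. Txnl1 stood at -0.56 on ZnO 16 replicate 4, above the other 3 arrays of that dose and nearest to the ZnO 4 arrays. Gsr stood at -0.14 on ZnO 16 replicate 1, above the other 3 and close to the lowest ZnO 4 array. Gsto1 stood at 4.13 on ZnO 16 replicate 2, the dimmest array, above all other 7 arrays.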

How the results depend on the processing

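Scaling moved the counts most: from 8 members higher and 4 lower to 13 and 1 with median scaling, 0 and 7 without scaling and 0 and 8 with spike-ins. Leaving out 1 array at a time gave 7 to 9 higher and 2 to 6 lower. Leaving out both dimmest arrays, chosen after seeing the data, gave 4 higher and 5 lower. With the replicate block there were 8 higher and 5 lower, with Mgst2 added (adjusted p = 0.0433 by limma), and no other member call changed. Quantile normalization gave 12 higher and 4 lower. Normexp followed by quantile normalization gave 10 higher and 4 lower, without Gss and Txnrd2 (0.32, adjusted p = 0.167 by limma), and Txnip was then -1.29. Its added offset of 50 makes differences of dim probes smaller, but whether that accounts for the calls lost with it was not tested. Signs, relative to the median of all features where the scaling differed, turned only for members that did not pass: Prdx6 (-0.002 with median scaling, -0.001 without scaling and with spike-ins, -0.029 without the dimmest arrays), Msra (-0.001 with quantile normalization), Mgst1 (-0.298), Cat (-0.067) and Glrx (0.203) with normexp, Gpx1 (0.201) with the mean of its probes, and Gpx4 (-0.149), Gsto1 (-0.037) and Prdx5 (-0.031) without the dimmest arrays. Median, spike-in and no scaling move every member by the same amount, and subtracting the median of all features takes that move back. Signs under these settings are therefore no check on the called members. Without that subtraction, 0 members were called higher in the unscaled and spike-in fits. Leaving out 1 array, the ranges that crossed 0 were -0.040 to 0.075 for Prdx6, -0.067 to 0.260 for Cat, -0.052 to 0.236 for Glrx3, -0.023 to 0.125 for Gsto1, -0.034 to 0.110 for Msra and -0.255 to 0.007 for Gpx1. The cause was not tested. The other alternatives (filters, flagged spots, no trend, low areas masked) gave 7 to 8 higher and 4 lower, with Prdx3 lost without a filter (0.413, adjusted p = 0.0554 by limma) and, when all 8 arrays had to be well above background, Txnip not tested and Mgst2 called lower. Signal over background limits Txnip, Cat and the 7 members that did not pass the filter.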
